A study of Mus musculus with 6 samples.

Results

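The genes examined here encode the cytokines of the IL-17, IL-22 and IL-23 axis and the receptor chains through which they act: Il17a, Il17f, Il17c, Il22 and Il23a, and Il17ra, Il17rc, Il22ra1, Il22ra2 and Il23r. They were taken by symbol, and all 10 were present among the 18477 genes of the colon expression table. The 6 libraries came from males of the C57BL/6 strain, aged 6 to 8 weeks, all of which drank 2% (w/v) dextran sulfate sodium (DSS), a polymer that injures the colon lining, for 7 days beginning on day 8. Throughout the 14 days, the DSS group (n = 3) was gavaged daily with PBS and the DSS+BV group (n = 3) with the gut bacterium *Bacteroides vulgatus*. The mice for sequencing were a random subset of each group, and no mouse without DSS was sequenced here, so every value below is from a colitic colon. The comparison asks how oral *B. vulgatus* altered gene expression in that colon.

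IL-23 is a heterodimer of the p19 chain, encoded by Il23a, and the p40 chain, encoded by Il12b, and is made by dendritic cells and macrophages. It acts through IL-23R on type 3 lymphocytes (Th17 cells, γδ T cells and group 3 innate lymphoid cells), which release IL-17A, IL-17F and IL-22. IL-17A and IL-17F bind a receptor of IL-17RA and IL-17RC and induce chemokines and antimicrobial proteins, whereas IL-22 signals through IL-22RA1 and IL-10RB on epithelial cells and drives STAT3 targets, barrier repair and antimicrobial lectins. IL-22RA2, also called IL-22 binding protein, is a soluble decoy for IL-22.

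Sequences upstream of Il17a, Il17f and Il23r are shown because these lymphocyte genes shared their highest library, as described below. That library, DSS 3, was also the highest for Il17c, Il17ra and Il22ra1, so it does not set these 3 genes apart. Each stretch is written 5′ to 3′ on the gene's own strand and ends at the base before the RefSeq start site (build GRCm38.p6), with the core letters of nuclear receptor response elements, AGGTCA or its reverse complement TGACCT, in capitals. The Il17a stretch lies at chr1:20730655-20730904 on the plus strand, that of Il17f at chr1:20784271-20784494 on the minus strand, before a start that lies inside the span of the gene given below, and that of Il23r at chr6:67491856-67492105 on the minus strand.
Il17a: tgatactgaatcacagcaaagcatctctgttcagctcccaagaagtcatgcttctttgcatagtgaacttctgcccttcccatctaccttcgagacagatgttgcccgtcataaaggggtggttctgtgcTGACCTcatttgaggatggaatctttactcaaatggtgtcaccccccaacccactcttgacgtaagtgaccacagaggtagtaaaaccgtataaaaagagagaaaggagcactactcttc
Il17f: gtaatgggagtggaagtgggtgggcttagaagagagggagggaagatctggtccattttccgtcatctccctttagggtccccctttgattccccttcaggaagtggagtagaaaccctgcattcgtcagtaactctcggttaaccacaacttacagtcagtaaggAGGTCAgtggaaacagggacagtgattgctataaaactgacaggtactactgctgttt
Il23r: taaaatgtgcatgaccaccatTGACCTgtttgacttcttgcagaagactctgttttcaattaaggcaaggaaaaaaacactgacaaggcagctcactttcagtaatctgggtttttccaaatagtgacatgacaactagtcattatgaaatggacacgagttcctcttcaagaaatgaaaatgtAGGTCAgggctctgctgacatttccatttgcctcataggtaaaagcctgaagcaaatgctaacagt
The Il17a stretch held the letters on the minus strand, between 120 and 115 bases before the start, and the Il17f stretch on the plus strand, between 58 and 53 bases before it. In Il23r they occurred in both orientations. Both strands of the 250 bases before the start were searched, and 14.02% of 32851 RefSeq mouse promoters held AGGTCA in that window. Among the genes of the axis, 7 had a promoter in the table used. Of these, the 3 genes shown had a match, and Il17c, Il17rc, Il22 and Il22ra1 had none. The AP-1 letters TGANTCA, present in 6.75% of all promoters, occurred in Il17a and Il22ra1, and the STAT letters TTCNNNGAA, present in 7.02%, in none of the 7. The motifs do not overlap each other in these windows, and a match is only a match of letters.

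Il22 has a near-identical neighbour on chromosome 10, Iltifb, which limits how far reads can be assigned. Il22 lies at chr10:118204584-118210047 and Iltifb at chr10:118289629-118295038. Their coding sequences in GENCODE M21 are 537 bases each and differ at 9 positions (98.3% identity), with a longest identical run of 215 bases. Bases 128 to 217 of the coding sequence are shown because they hold 4 of the differing positions, given in capitals.
Il22: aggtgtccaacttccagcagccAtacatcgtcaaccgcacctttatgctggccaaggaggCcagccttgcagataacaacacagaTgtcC
Iltifb: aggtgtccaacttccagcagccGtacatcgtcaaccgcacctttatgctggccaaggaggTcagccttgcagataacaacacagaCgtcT
Iltifb was assigned 1, 0 and 2 counts in DSS 1, 2 and 3 against 0 in each DSS+BV library, so almost all counts of the pair were assigned to Il22. None of the 10 genes of the axis had a fractional count in any library, and none shared an annotated exon with another gene.

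The libraries held between 15293276 and 17254343 expected counts. A floor of 3 counts corresponded to 0.175–0.198 CPM (counts per 1000000, scaled with TMM factors), depending on the library, and such floors and the intervals below cover counting error only. Of the 60 values of the axis genes, 22 were at or below 3 counts. Both receptor chains of IL-17, Il22 and both IL-22 receptor genes had enough counts to be tested, and Il17a, Il17f, Il17c, Il23a and Il23r did not. None of the 5 tested genes changed in edgeR's quasi-likelihood test (adjusted p under 0.05 and a log2 fold change over 1 in size), where 0.0892% of 14579 genes were called lower and 0% higher. At an unadjusted p under 0.05, 1 of the 5 (Il17rc) was higher and none lower, against 3.4% higher and 9.12% lower of all genes, and DESeq2 called 0 of the 9 axis genes it tested, against 0.279% higher and 1.73% lower of all genes. Of the 5, 2 had negative and 3 positive log2 fold changes (DSS+BV against DSS), as did 51.5% and 48.5% of all tested genes, and the median was 0.46, beside -0.01 for all. That median was 0.08 without DSS 2 and -0.10 without DSS+BV 1. RNA from whole colon cannot separate fewer cells of a type from less RNA per cell, and all p-values rest on the spread between 3 mice a group.

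**Figure D1:**
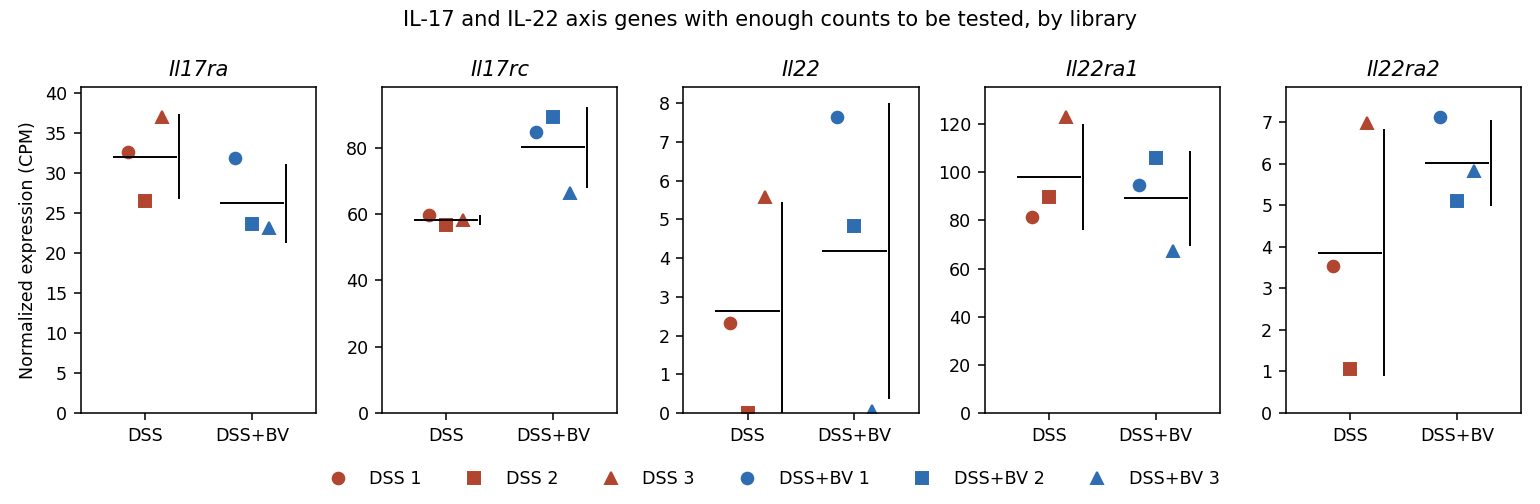
CPM (linear axes, each with its own scale from 0) of the 5 genes of the axis with enough counts to be tested, with 1 point per library and the group mean ± SD beside the points (the lower SD bar of Il22 in DSS is cut at 0). The Il17rc points of DSS+BV, 66.3–89.4 CPM, all lie above those of DSS, 56.9–59.9 CPM, whereas the groups overlap for Il17ra, Il22, Il22ra1 and Il22ra2.

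Il17a, the founding cytokine of the family (Entrez 16171, chr1:20730905-20734496), had few counts in every colon, with 3 of 6 libraries at or under the floor of 3 counts. It had 2, 6 and 12 counts in DSS 1, 2 and 3 against 4, 0 and 1 counts in DSS+BV 1, 2 and 3, where 0 counts allow up to 0.191 CPM. The counts summed to 20 in DSS against 5 in DSS+BV, with means of 0.397 ± 0.290 and 0.109 ± 0.138 CPM (SD, n = 3). DSS+BV 1 overlapped the DSS libraries, and an exact two-sided permutation test gave p = 0.2, where 3 against 3 cannot go below 0.1. With Il17a kept in an edgeR fit of every gene with at least 1 count, its log2 fold change was -1.79 (adjusted p = 0.561), and DESeq2 gave -1.86 (adjusted p = 0.625).

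Il17f, which lies beside Il17a on chromosome 1 (Entrez 257630, chr1:20777146-20785274) and encodes the related IL-17F, did not share that difference in pooled counts. It had 5, 1 and 14 counts in DSS against 11, 7 and 1 in DSS+BV, summing to 20 and 19. The means were 0.392 ± 0.385 and 0.412 ± 0.333 CPM (SD, n = 3; exact permutation p = 0.9). Its share of the Il17f plus Il17a counts was 71.4%, 14.3% and 53.8% in DSS 1, 2 and 3 against 73.3%, 100% and 50% in DSS+BV 1, 2 and 3. These shares rest on 2 to 26 counts a library, so that the Clopper-Pearson 95% interval of DSS+BV 2 (7 of 7 counts) reached down to 59.0% and that of DSS+BV 3 (1 of 2 counts) ran from 1.26 to 98.7%. The mean share was 46.5% ± 29.3 in DSS against 74.4% ± 25.02 in DSS+BV, a difference of 27.9 percentage points that was within the replicate spread (exact permutation p = 0.4). It was 11.8 points without DSS 2 and 15.1 without DSS+BV 2.

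Il17c (Entrez 234836, chr8:122422020-122423639), whose product is an epithelial cytokine that binds IL-17RA and IL-17RE, had 2, 2 and 3 counts in DSS against 1 in each DSS+BV library. The groups did not overlap, as in the lower direction for 11.3% of tested genes, and p = 0.1 in the exact permutation test was the smallest that this design can give, but every library was at or under the floor of 3 counts, so no fold is given and a difference was not detectable at this depth.

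**Figure D2:**
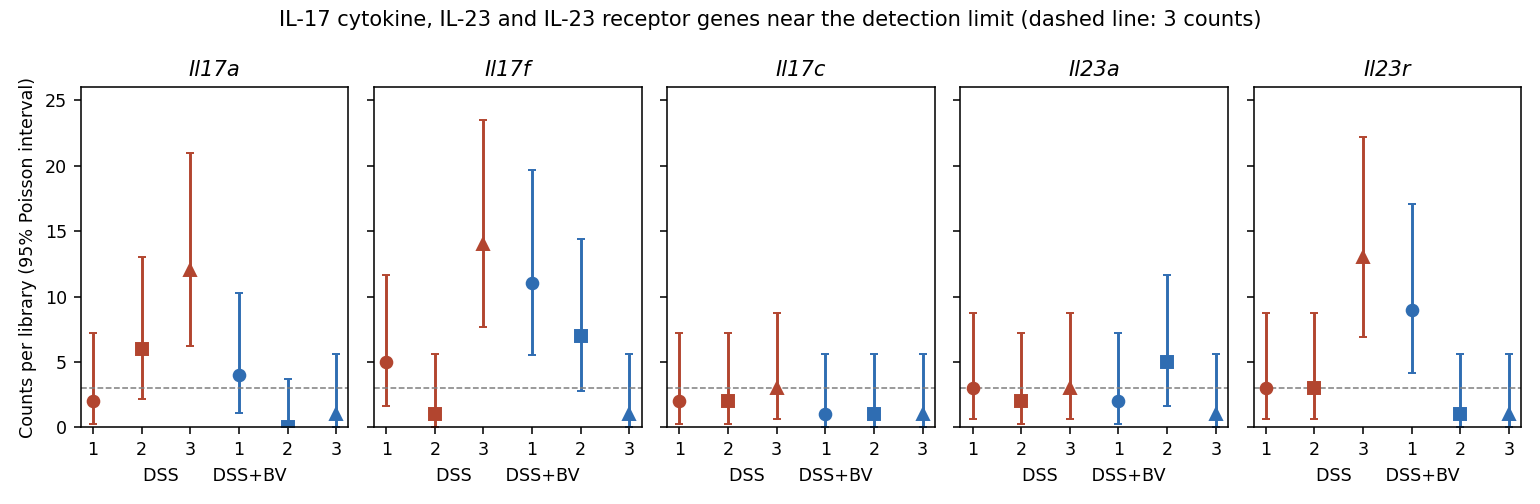
Assigned counts per library (linear axis from 0) of Il17a, Il17f, Il17c, Il23a and Il23r, with 1 point per library, exact Poisson 95% intervals and a dashed line at 3 counts. DSS 3 has the most counts of Il17a (12), Il17f (14) and Il23r (13), and every Il17c value lies at or under the line.

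The receptor chains of IL-17 were measured well above the floor. Il17ra, the chain shared by most IL-17 family receptors (Entrez 16172, chr6:120463181-120483731), stood at 32.6, 26.5 and 37.0 CPM in DSS against 31.9, 23.6 and 23.1 CPM in DSS+BV. DSS+BV 1 lay within the DSS range, and the means of 32.01 ± 5.27 and 26.2 ± 4.92 CPM (SD, n = 3) gave a log2 fold change of -0.29 (SE 0.20, 95% interval -0.77 to 0.19, edgeR adjusted p = 0.585).

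Il17rc, the chain that pairs with IL-17RA to bind IL-17A and IL-17F (Entrez 171095, chr6:113471455-113483163), was even within the DSS group and was the only gene of the axis with higher values in every DSS+BV library. It was at 59.9, 56.9 and 58.2 CPM in DSS against 84.8, 89.4 and 66.3 CPM in DSS+BV, with means of 58.3 ± 1.501 and 80.2 ± 12.2 CPM (SD, n = 3). A gap of this kind in the higher direction was present in 6.37% of all tested genes. The log2 fold change was 0.46 (SE 0.14, 95% interval 0.11 to 0.80), with an unadjusted p of 0.0168 but an adjusted p of 0.334 in edgeR, and DESeq2 gave 0.48 (adjusted p = 0.160). The difference therefore did not pass the correction over all genes. Markers of colon epithelium, where Il17rc is also expressed, were higher in DSS+BV by their sum. The summed CPM of 10 such genes was 12640–21226 in DSS against 21863–40999 in DSS+BV. Across libraries the sum did not follow Il17rc, as DSS+BV 3 had the highest sum and the lowest Il17rc of its group. Muc2, at 20700 CPM in DSS+BV 3, was the largest part of that sum, and Epcam and Cdh1 had log2 fold changes of 0.21 and 0.18. All 10 epithelial markers had positive log2 fold changes (median 0.41) and 4 of them did not overlap between the groups, although none was called by edgeR and 1 by DESeq2. Krt8, a keratin of simple epithelia, was at 3290, 3336 and 3472 CPM in DSS against 5449, 6249 and 4012 CPM in DSS+BV, and Krt19, Vil1 and Car1 had log2 fold changes of 0.57, 0.48 and 2.84 (edgeR adjusted p = 0.364, 0.336 and 0.313). Unlike the sum, Krt8, Krt19, Cdh1 and Slc26a3 were lowest of their group in DSS+BV 3, as Il17rc was. The other listed epithelial markers, Vil1, Car1, Muc2, Epcam, Cldn7 and Krt20, were lowest of that group in DSS+BV 1. The part of these cells in the Il17rc difference was not tested.

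Il22 (Entrez 50929) varied widely within both groups. Its counts were 39, 0 and 96 in DSS 1, 2 and 3 against 116, 76 and 1 in DSS+BV 1, 2 and 3, equal to 2.34, 0 and 5.59 CPM and to 7.65, 4.84 and 0.0632 CPM. Each group therefore held 1 library at or near 0 and 2 libraries with 39 counts or more. The exact Poisson 95% interval of the 0 counts of DSS 2 reached up to 0.229 CPM. For the lowest of the 4 higher libraries that interval was 1.66–3.19 CPM, so the unevenness was beyond counting error. The means were 2.64 ± 2.81 and 4.19 ± 3.84 CPM (SD, n = 3), and the log2 fold change of 0.66 had an SE of 1.51 and a 95% interval from -2.95 to 4.26 (edgeR adjusted p = 0.883). That interval holds changes of several-fold in either direction. Leaving out DSS+BV 1 turned the sign (-0.10), and leaving out DSS 3 gave 1.83.

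Il22ra1, the signalling chain of the IL-22 receptor (Entrez 230828, chr4:135728159-135755383), was at 81.3, 89.6 and 123 CPM in DSS against 94.7, 106 and 67.4 CPM in DSS+BV. The groups overlapped throughout, and the log2 fold change of -0.13 (SE 0.23, 95% interval -0.68 to 0.41, edgeR adjusted p = 0.835) became 0.063 without DSS 3 and 0.037 without DSS+BV 3.

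Il22ra2, the decoy receptor (Entrez 237310, chr10:19622028-19634681), was at 3.53, 1.06 and 6.99 CPM in DSS against 7.12, 5.10 and 5.82 CPM in DSS+BV. Its lowest library, DSS 2, was also the library without an Il22 count, whereas DSS+BV 3, with 1 count of Il22, had 5.82 CPM of Il22ra2. The means of 3.86 ± 2.98 and 6.01 ± 1.03 CPM (SD, n = 3) gave a log2 fold change of 0.64 (SE 0.61, 95% interval -0.82 to 2.09, edgeR adjusted p = 0.689), which was 0.20 without DSS 2 and 1.38 without DSS 3.

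Decoy counts were a small share of decoy plus signalling receptor counts. Il22ra2 made up 4.17%, 1.17% and 5.37% of the Il22ra2 plus Il22ra1 counts in DSS against 6.999%, 4.60% and 7.94% in DSS+BV. The Clopper-Pearson 95% interval was 0.681–1.86% in DSS 2 and 6.45–9.65% in DSS+BV 3, the lowest and the highest library. The group means were 3.57% ± 2.17 and 6.51% ± 1.73, a difference of 2.95 percentage points (exact permutation p = 0.2), with DSS+BV 2 inside the DSS range, and 1.74 points without DSS 2.

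The IL-23 genes were as sparse as Il17a. Il23a, encoding p19 (Entrez 83430, chr10:128296140-128298084), had 3, 2 and 3 counts in DSS against 2, 5 and 1 in DSS+BV, or 8 in each group (exact permutation p = 0.9), with 5 of 6 libraries at or under the floor. Il23r (Entrez 209590, chr6:67422932-67491855) had 3, 3 and 13 counts in DSS against 9, 1 and 1 in DSS+BV, with 19 and 11 counts in all (exact permutation p = 0.5). Only DSS 3 and DSS+BV 1 exceeded the floor for Il23r, and the same 2 libraries had the most Il17f and Il22. They also had the highest summed CPM of 6 T cell markers, 57.5 and 63.8, against 28.9–34.2 in the other 4 libraries. Cd4 alone was at 28.1 and 35.1 CPM in these 2 libraries. The same was true of 5 B cell markers, with sums of 1580 and 1103 CPM against 242–645 CPM in the other 4 libraries. Across groups the T cell sums overlapped, and of the T cell genes Cd3g, Cd3d and Cd5 had log2 fold changes of -0.22, -0.31 and -0.37 and Cd8a one of 0.57, with higher values in every DSS+BV library (4.01, 5.72 and 6.29 against 8.38, 6.94 and 8.41 CPM, edgeR adjusted p = 0.425). A gap in the higher direction, as for Cd8a, was present in 6.37% of all tested genes. No T cell marker was called or had an unadjusted p under 0.05, DESeq2 called none, and the part of T cell content in these values was not tested. The T cell receptor genes Trac, Trbc1, Trbc2 and Trdc, also listed, were not found by symbol in the expression table.

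**Figure D3:**
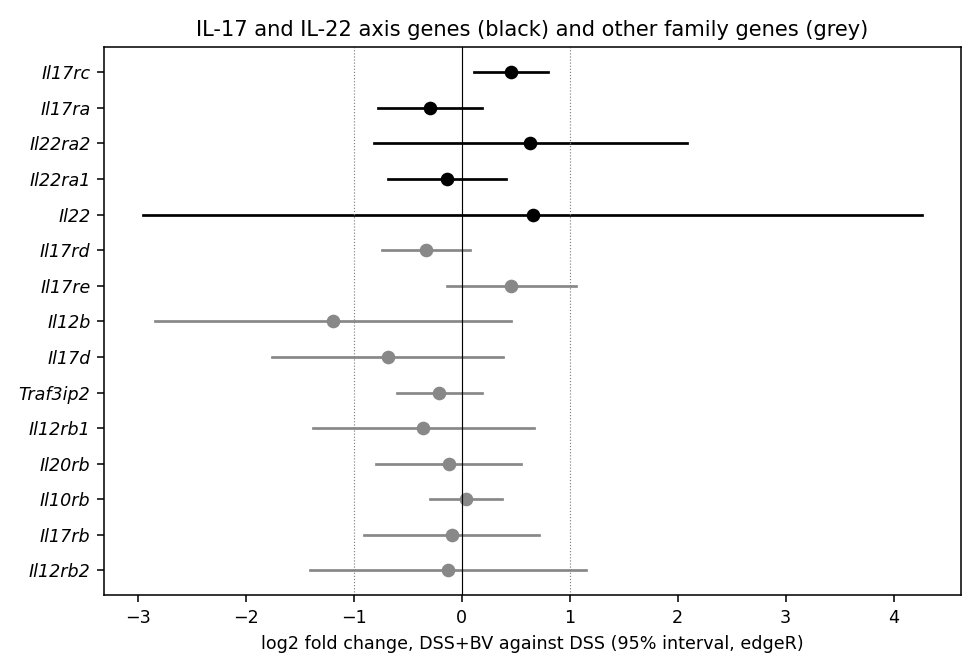
Log2 fold changes of DSS+BV against DSS from edgeR, with 95% intervals, for the tested genes of the axis (black) and other genes of the same cytokine and receptor families (grey). The interval of Il17rc, 0.11 to 0.80, lies above 0, and that of Il22, -2.95 to 4.26, is the widest of the axis genes.

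Per kilobase of the longest coding transcript, levels ranked the receptors of epithelium above the cytokines. Over the 6 libraries, Il22ra1 had 36.4 ± 7.53 and Il17rc 30.1 ± 6.20 CPM per kilobase (mean ± SD), but with the longer 3′ end of RefSeq the level of Il22ra1 was 16.1 CPM per kilobase, below the 29.8 of Il17rc, so their order is uncertain. Il17ra followed at 3.75 ± 0.718 CPM per kilobase (7.42 with the shorter RefSeq length), Il22 at 3.08 ± 2.81 and Il22ra2 at 1.98 ± 0.927. Il22 did not differ from Il22ra2 beyond its spread, nor from Il17ra at the longer GENCODE length of Il17ra. Il17f, Il17a, Il17c, Il23r and Il23a came last, at 0.341, 0.216, 0.142, 0.124 and 0.122 CPM per kilobase, and their order is not resolved at these counts.

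Other genes of the same families gave no call either. Of 17 listed, Il20 and Il24 were not found by symbol in the expression table. Enough counts were present for 10, of which 8 had negative and 2 positive log2 fold changes (median -0.17, or -0.011 without DSS 3, -0.29 without DSS 2 and -0.33 without DSS+BV 3). None was called by edgeR, none had an unadjusted p under 0.05, and DESeq2 called 0 of the 13 it tested. Il12b, which encodes the p40 chain of IL-23, was at 1.86, 0.808 and 4.13 CPM in DSS against 1.19, 1.34 and 0.443 CPM in DSS+BV, overlapping values with a log2 fold change of -1.19 (adjusted p = 0.518 in edgeR). Il10rb, the chain that completes the IL-22 receptor, was even across the libraries, from 85.8 to 109 CPM. Il17re, which pairs with IL-17RA in the receptor for IL-17C, was at 12.5, 21.4 and 12.5 CPM in DSS against 20.4, 22.0 and 21.2 CPM in DSS+BV, where DSS 2 overlapped the DSS+BV libraries. Il17rd, a further receptor of the family, was lower in every DSS+BV library, at 12.5, 12.7 and 13.7 against 10.4, 9.94 and 10.6 CPM, a gap in the same direction as that of Il17c (log2 fold change -0.33, edgeR adjusted p = 0.472). Of the rest, the cytokine gene Il17d was at 0.695–2.05 CPM, and the receptor genes Il17rb, Il12rb1, Il12rb2 and Il20rb at 1.86–3.26, 1.93–5.30, 0.560–1.92 and 2.44–3.86 CPM. Traf3ip2, which encodes the adaptor Act1 of the IL-17 receptor, was at 26.3–37.5 CPM. Too few counts were assigned to test Il12a, Il17b, Il19, Il20ra and Il25, which stayed at or under 1.11 CPM, and of these Il20ra was lower in every DSS+BV library (0.359, 0.746 and 1.05 against 0.198, 0.127 and 0.316 CPM). Gaps in the lower direction, as for Il17rd and Il20ra, were present in 11.3% of all tested genes.

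Genes known as targets of IL-17 signalling, by contrast, had mostly negative log2 fold changes. Of 21 listed, 20 were tested, 18 of them with negative log2 fold changes, and the median was -2.74. The edgeR test called 4 lower and none higher, beside 0.0892% and 0% of all tested genes, and 14 did not overlap between the groups, all lower, beside 11.3% of all tested genes. This list, like the other lists, was chosen with earlier results of these data known, so such shares are a description only. S100a8, a calprotectin subunit, fell from 46.3, 30.4 and 39.1 CPM to 1.85, 1.46 and 2.09 CPM (log2 fold change -4.42, adjusted p = 0.0127), and its partner S100a9 fell by 4.19 on the log2 scale (adjusted p = 0.0179). The metalloproteinase genes Mmp9 and Mmp13 fell by 2.77 and 3.40 on the log2 scale (adjusted p = 0.0179 and 0.0293). Csf3, which encodes the granulocyte growth factor G-CSF, had a log2 fold change of -4.17, the neutrophil chemokine gene Cxcl2 one of -3.71 and the siderophore-binding Lcn2 one of -3.25. Csf3, Cxcl2 and Lcn2 did not pass the adjustment in edgeR (adjusted p = 0.083 each). The transcriptional regulator gene Nfkbiz was at 91.3–126 CPM in DSS against 67.9–108 CPM in DSS+BV, and Pigr, the receptor that carries IgA across the epithelium, had overlapping values with a log2 fold change of 0.15.

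The number of IL-17 targets called depended on single libraries and on the tool. It was 4 with all libraries, 2 without DSS+BV 1, 1 without DSS 2 and 0 without any of DSS 1, DSS 3, DSS+BV 2 or DSS+BV 3, whereas DESeq2 called 13 lower, beside 1.73% of all genes it tested. Several of these genes, S100a8, S100a9 and Mmp9 among them, are also abundant in neutrophils, and neutrophil markers moved with them: all 7 tested markers had negative log2 fold changes (median -3.61), 3 of 7 were called lower (Mmp8, Cxcr2 and Retnlg) beside 0.0892% of all tested genes, a count of 0–1 when any library was left out, and the summed CPM of 8, most of it Ly6g in every library, was 137–955 in DSS against 26.7–322 in DSS+BV. The share of the target differences that goes with neutrophil content was not tested, and these targets also respond to other inflammatory signals.

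**Figure D4:**
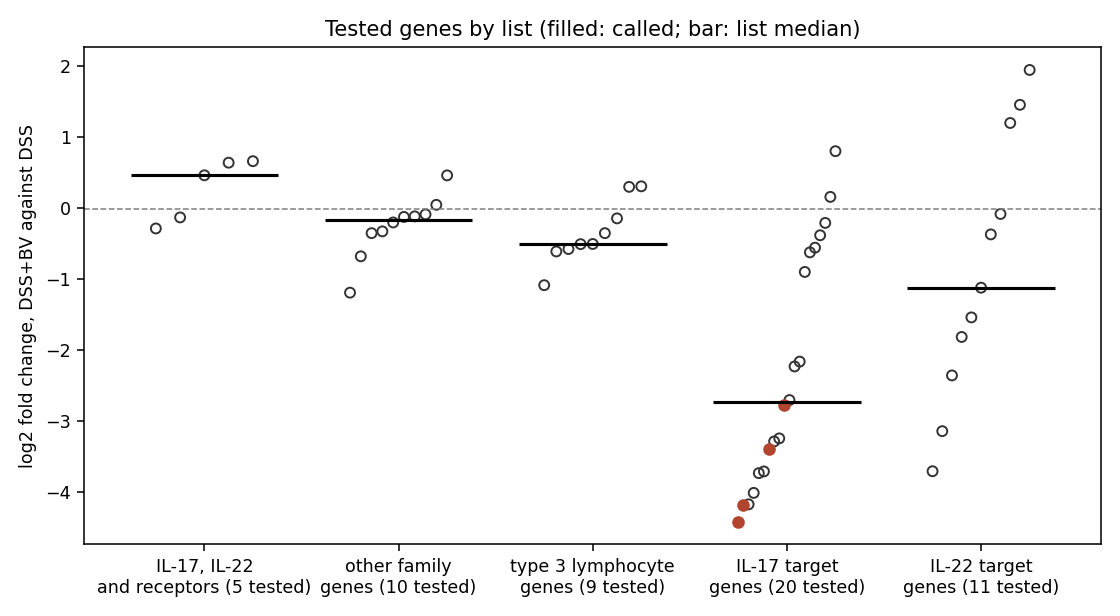
Log2 fold changes (DSS+BV against DSS) of the tested genes of the axis, of other family genes, of genes linked to type 3 lymphocytes and of known IL-17 and IL-22 targets, with filled points for genes called by edgeR and a bar at the median of each list. The medians with all libraries are 0.46, -0.17, -0.51, -2.74 and -1.12, of which all but that of the IL-17 targets moved by over 1.5 times when some single library was left out, and the 4 filled points are IL-17 targets.

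Known targets of IL-22 gave no call in edgeR. All 11 were tested, 8 had negative log2 fold changes (median -1.12, or -0.73 without DSS 3), and 5 had an unadjusted p under 0.05, all lower, beside 9.12% of all tested genes. DESeq2 called 3 lower, beside 1.73% of all genes. The 3 were the acute phase genes Saa1, Saa2 and Saa3, which were also the ones whose groups did not overlap, all lower, beside 11.3% of all tested genes. Saa3 was at 136, 312 and 457 CPM in DSS against 10.6, 32.6 and 26.1 CPM in DSS+BV (log2 fold change -3.71, edgeR adjusted p = 0.135). Lbp, which encodes a lipopolysaccharide carrier, and Socs3, which encodes a STAT3 feedback inhibitor, had log2 fold changes of -1.82 and -1.12 with overlapping values.

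Reg3b and Reg3g, which encode antimicrobial lectins of the epithelium, did not follow the level of Il22 across libraries. These genes and Ccr6 are described because of their values. Reg3b was at 10.8, 670 and 31.9 CPM in DSS 1, 2 and 3 against 20.4, 831 and 1096 CPM in DSS+BV 1, 2 and 3. Reg3g was at 4.19, 201 and 10.3 CPM and at 5.87, 175 and 313 CPM. Thus DSS 2 and DSS+BV 3, with 0 and 1 count of Il22, were among the 3 libraries with high lectin levels, whereas DSS 1, DSS 3 and DSS+BV 1 had Il22 counts and low lectin levels. DSS+BV 2 had both, with 76 counts of Il22 and 831 CPM of Reg3b. Ccr6, the homing receptor of Th17 cells and B cells, was at 12.5, 1.68 and 16.4 CPM in DSS against 17.5, 1.147 and 1.83 CPM in DSS+BV, high in the 3 libraries where the lectins were low. Among the B cell markers, Cd79a was high in the same 3 libraries as Ccr6, at 39.1, 4.48 and 66.9 CPM in DSS against 53.0, 1.91 and 2.66 CPM in DSS+BV, whereas Jchain, a gene of antibody-secreting cells, was as high in DSS 2 as in DSS 1 (537 and 533 CPM). The part of B cells in these patterns was not tested. Between the groups, the 95% interval of the log2 fold change was -2.62 to 5.53 for Reg3b and -2.71 to 5.10 for Reg3g.

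**Figure D5:**
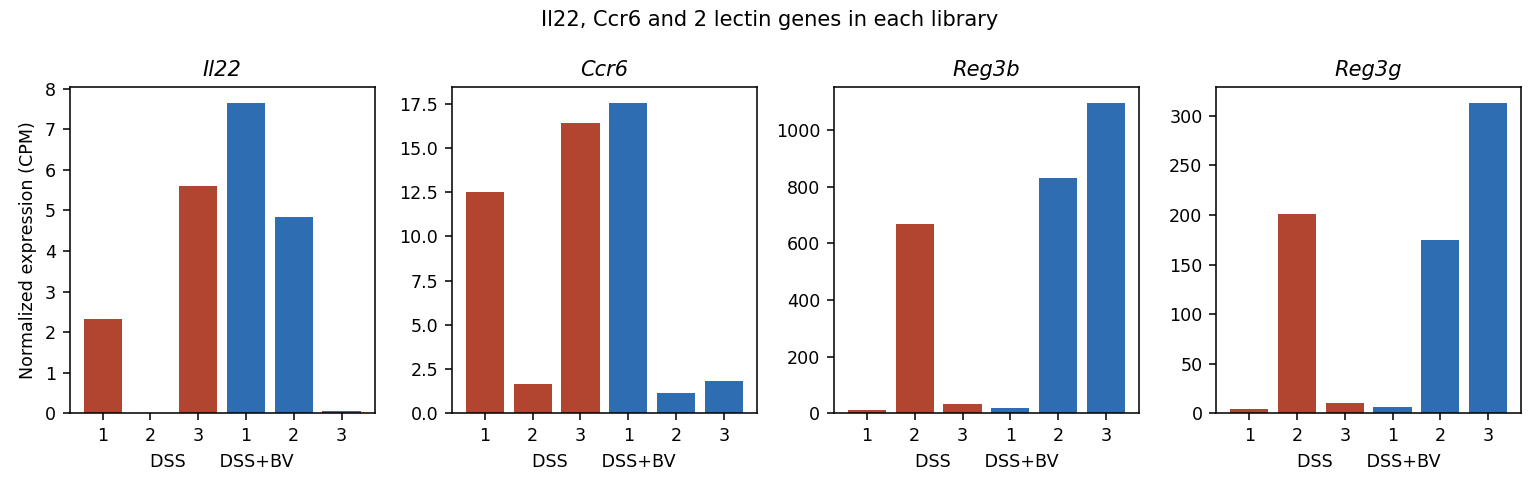
CPM of Il22, Reg3b, Reg3g and Ccr6 in each of the 6 libraries (bars on linear axes from 0, each gene with its own scale, in the order DSS 1–3 and DSS+BV 1–3). Reg3b is at 670–1096 CPM in DSS 2, DSS+BV 2 and DSS+BV 3, of which DSS 2 and DSS+BV 3 have 0 and 1 count of Il22.

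Genes of the lymphocytes that answer IL-23 showed no call. Of 10 listed, 9 were tested, with 7 negative and 2 positive log2 fold changes (median -0.51, but -0.094 without DSS 3, -0.33 without DSS+BV 2 and -0.27 without DSS+BV 3), and DESeq2 called none. Il1r1, the receptor through which IL-1 acts on these cells and on stroma, was lower in every DSS+BV library (80.8, 105 and 97.2 against 70.0, 64.5 and 64.4 CPM, log2 fold change -0.51, edgeR adjusted p = 0.300) and was the 1 gene of the list with an unadjusted p under 0.05. Such a gap in the lower direction was present in 11.3% of all tested genes. Stat3, Rora and Batf, which encode transcription factors of these lymphocytes, had log2 fold changes of -0.36, -0.51 and -1.09 with overlapping values. The 10 markers of mononuclear phagocytes, the source of IL-23, all had negative log2 fold changes (median -0.79, from -0.48 without DSS 3 to -1.39 without DSS+BV 1, and -0.52 without DSS+BV 3), none was called by edgeR and 1 by DESeq2, with summed CPM of 351–728 in DSS against 194–487 in DSS+BV. The mannose receptor gene Mrc1 was the 1 called by DESeq2 (log2 fold change -1.33 and adjusted p = 0.300 in edgeR), and Csf1r, C1qa and Ccr2 had log2 fold changes of -0.90, -0.87 and -1.13. The sums also overlapped for 5 B cell markers, at 548–1580 and 242–1103 CPM, and for 5 smooth muscle markers, at 2872–3592 and 1980–3224 CPM, and no gene of either list was called by edgeR or DESeq2 or had an unadjusted p under 0.05. No listed marker present in the table was at 0 in all libraries, and markers of epithelium and smooth muscle were abundant throughout, as the label of colon tissue says.

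The genes whose log2 CPM ran most alike across the 6 libraries, among 14578 others, were Atp8b2 and Ms4a6b for Il17ra (Pearson r = 0.999 each), Krt8 and Mettl17 for Il17rc (0.990 and 0.989), Casp14 and Prdx6 for Il22 (0.986 and 0.983), Olfr1383 and Rbpms2 for Il22ra1 (0.991 and 0.990) and Zdhhc14 and Elmo1 for Il22ra2 (0.991 and 0.990). With 6 points, including both groups, and so many genes searched, values this high are a description only.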

How the data were processed

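Colon RNA from 3 DSS and 3 DSS+BV mice was sequenced on DNBSEQ-T7 from SMARTer mRNA libraries. The authors deposited expected counts per gene, not scaled between libraries. Their processing notes name HISAT2 2.1.0, Bowtie2 2.2.5, RSEM 1.2.8 and build GRCm38.p6. The annotation and strand setting are not given in the sources used here. The genes and lists were chosen with earlier results of these data known. The deposited expected counts were rounded to whole numbers. RSEM divides reads that match several genes, which bears on Il22 and Iltifb.

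Genes were kept with filterByExpr (minimum count 10, minimum total 15), scaled with TMM factors and tested by edgeR 4.0.16 (quasi-likelihood, under R 4.3.3), adjusting over 14579 genes by Benjamini-Hochberg. Calls needed an adjusted p under 0.05 and a log2 fold change over 1 in size. The biological coefficient of variation was 32.1%. Genes removed by the filter, and shares of counts, were compared by exact two-sided permutation tests over libraries. Intervals are 95% exact Poisson or Clopper-Pearson, and the floor is 3 counts. Named genes are the 10 of the axis, the other family genes, the genes of each further list called by edgeR or otherwise up to 4 with the smallest p, and the 2 genes most alike by Pearson r for each axis gene with a mean of at least 20 counts. Any others were named after their values were seen, and some listed genes are not reported here. Lengths and exons came from GENCODE M21, and coordinates and promoters from RefSeq, where all 10 genes matched by Entrez number. No 2 libraries of a group agreed within sampling noise (chi-square per degree of freedom 42.7–118).

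Alternatives were DESeq2 1.42.0, other scaling factors, every gene with at least 1 count, a block for the replicate number and each library left out. Adding the Iltifb counts to Il22 was chosen after seeing the data. The tests were first run on simulated data. Python 3.11.15 and matplotlib 3.10.9 were used for figures.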

Additional observations from a re-analysis of the deposited data

How the results depend on the processing

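No gene of the axis was called under any setting run. DESeq2 called 280 genes lower and 45 higher where edgeR called 13 and 0, and among the lists it called lower 13 IL-17 targets (4 in edgeR), 3 IL-22 targets (0), 1 phagocyte marker (0) and 6 neutrophil markers (3), and higher 1 epithelial marker (0). The labels do not say whether the replicate numbers pair the mice, and correlations of same-numbered deviations (0.27, 0.25 and -0.30) cannot settle it with 3 mice a group. The fit with the replicate block called 0 genes lower, hence 0 IL-17 targets and 0 neutrophil markers, and gave log2 fold changes of 1.16 for Il22 and 0.95 for Il22ra2. It changed no other call. Leaving out each library in turn gave 0–3 genes called lower, 0–4 higher, 0–2 IL-17 targets lower, 0–1 neutrophil markers lower and 0–1 epithelial markers higher. The sign turned for Il22ra1 without DSS 3 (0.063) or DSS+BV 3 (0.037) and for Il22 without DSS+BV 1 (-0.10), and the cause was not tested. Across these omissions the log2 fold changes ranged from -0.10 to 1.83 for Il22, -0.27 to 0.063 for Il22ra1, 0.20 to 1.38 for Il22ra2, 0.38 to 0.58 for Il17rc and -0.44 to -0.17 for Il17ra. With the Iltifb counts added, an alternative chosen after seeing the data, Il22 was at 0.63. Other scaling factors and the omission of the count filter gave the same number of calls in each list. Depth limits Il17a, Il17f, Il17c, Il23a and Il23r, which had at most 14 counts in a library.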
